A study of Mus musculus with 4 samples.

Results

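The genes described here are the 10 genes of MHC class II antigen presentation that are named below, taken by symbol from the 32285 genes of each matrix. They were followed in single-cell RNA libraries from brains that carried breast cancer cells. Female C57BL/6 mice received an intracranial implant of EO771 cells, a mouse mammary carcinoma line that here expresses GFP, and were then given vehicle (CTRL) or SCDi for 14 days. The title of the series names stearoyl-CoA desaturase, an enzyme that makes monounsaturated fatty acids, as the target. No source used here gives the compound, its dose or the age of the mice. For each treatment, 3 brains went into 1 pool before sorting into immune cells (DAPI-/CD45+/GFP-) and tumour cells (DAPI-/CD45-/GFP+), which gave 4 libraries. All groups share the tumour line, the strain and the sex.

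MHC class II molecules carry peptides from endocytosed proteins to the cell surface, where CD4+ T cells read them. Their transcription depends on Ciita, a coactivator that does not bind DNA itself but joins a complex of RFX, CREB and NF-Y on a conserved promoter module. H2-Eb1 encodes the beta chain of I-E, another class II molecule. The alpha chain gene of I-E, H2-Ea, was not found by name in the matrices, so H2-Eb1 is read here as RNA only. The alpha and beta chains of I-A (H2-Aa and H2-Ab1) assemble with the invariant chain Cd74, which blocks the groove and steers the complex to endosomes. There proteases degrade Cd74, and H2-DM (H2-DMa with H2-DMb1 or H2-DMb2) exchanges the remaining fragment for peptide. H2-O (H2-Oa with H2-Ob) inhibits H2-DM. Dendritic cells and B cells carry these genes constitutively, whereas macrophages and microglia, the resident macrophages of the brain, gain them mainly under interferon gamma.

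Of the 10 genes, 8 lie together on chromosome 17 between 34092340 and 34316674 (GRCm38), a stretch of 224 kb, and Ciita lies on chromosome 16 between 10480059 and 10528418 on the plus strand. The RefSeq promoter table of build GRCm38.p6 held entries for 7 of the 10 genes. The letters TGATTGG, which NF-Y recognises as the Y box, stood within 250 bases before the start of 6 of these 7 genes, on the gene's own strand and 45 to 92 bases before the start. H2-DMa had no such match in either of its entries. In 4 of the 6 genes (H2-Aa, H2-Eb1, H2-Oa and H2-Ob) the letters GCAAC, part of the X box that RFX binds, ended 23 to 26 bases before the Y letters. Of all 32851 promoter entries, 7.23% held TGATTGG on either strand and 0.180% held GCAAC 10 to 30 bases before it. The letters were spelled out after these promoters had been read, so the matches are a description. The same spacing is visible in an alpha chain gene, a beta chain gene and an H2-O gene, shown 5′ to 3′ from 110 to 11 bases before the start with the X and Y letters in capitals. The windows are chr17:34287834-34287933 on the minus strand for H2-Aa, chr17:34305757-34305856 on the plus strand for H2-Eb1 and chr17:34238795-34238894 on the plus strand for H2-Ob.
H2-Aa: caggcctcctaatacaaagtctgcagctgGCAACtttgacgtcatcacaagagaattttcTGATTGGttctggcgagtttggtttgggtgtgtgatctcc
H2-Eb1: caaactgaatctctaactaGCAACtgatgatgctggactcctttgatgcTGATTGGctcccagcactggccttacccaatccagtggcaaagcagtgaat
H2-Ob: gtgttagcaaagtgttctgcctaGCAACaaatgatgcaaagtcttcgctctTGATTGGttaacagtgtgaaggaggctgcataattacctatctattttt

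After filters on genes and mitochondrial counts and removal of predicted doublets, 6572 CTRL and 6120 SCDi immune cells and 7009 CTRL and 8262 SCDi tumour cells remained. Their median depth was 15367 and 16595 UMIs (unique molecules counted) per immune cell and 41512 and 36407 UMIs per tumour cell. Ptprc (CD45) was detected in 96.7% of CTRL and 98.1% of SCDi immune cells. In the tumour sort it was detected in 6 CTRL cells and in 0 of 8262 SCDi cells. A count of 0 there allows up to 0.0363%, taken as 3 cells of the total. Krt8, a keratin that marks the tumour line, was detected in 98.0% (CTRL) and 96.4% (SCDi) of tumour cells, against 2.10% and 3.27% of immune cells. Pairs of libraries shared 9 to 23 cell barcodes. Each treatment is 1 pooled library per sort, so differences between SCDi and CTRL have no replicate check and no test across animals. The 95% intervals given here cover counting error only.

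Immune cells were assigned to classes by lineage markers that include none of the 10 genes. The CTRL and SCDi libraries gave 38 and 33 type 1 conventional dendritic cells (cDC1), 224 and 165 type 2 (cDC2), 429 and 234 migratory dendritic cells with Ccr7 and Fscn1, and 98 and 82 plasmacytoid dendritic cells. They also gave 89 and 82 B cells, 2424 and 2473 macrophages, 1550 and 1630 monocytes, and 292 and 401 microglia. T cells (215 and 124), NK cells (134 and 117) and neutrophils (61 and 40) as a rule do not make class II chains in mice and served as the background of the chains. That background holds free RNA and other sources outside the class, which were not told apart. The median number of detected markers was highest for a class's own lineage in both libraries, with ties in cDC2 and in CTRL microglia. A cDC2 cell held a median of 4 (CTRL) and 3 (SCDi) of 6 cDC2 markers beside 3 and 3 of 11 macrophage and 4 and 3 of 10 monocyte markers. Gated microglia carried a median of 7 (CTRL) and 8 (SCDi) of 8 microglial markers and also 7 and 6 of 11 macrophage markers, several of which microglia express. Macrophages and monocytes form a range: 10.4% to 15.95% of their cells lay near the line between them. Cells with markers of more than 1 lineage (662 and 571) and cells with no lineage (340 and 162) were left out.

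Levels are given as CPM, the counts of a gene scaled to 1e6 UMIs of its class, a scale on which the same gene can be compared between classes. Summed over H2-Aa, H2-Ab1 and H2-Eb1, the 3 chains made up 25722 CPM in CTRL cDC1, which is 2.57% of all their UMIs. The CTRL order below it was cDC2 (14745 CPM), macrophages (8026), B cells (7017), migratory dendritic cells (6560), monocytes (3563), microglia (2734) and plasmacytoid dendritic cells (1850). Each step of that order exceeded counting error, and the smallest was between B cells and migratory dendritic cells (log2 0.10, interval 0.05 to 0.14). It is an order of UMIs pooled over a class, and the medians of single cells were ordered otherwise. By chain UMIs per 10000 UMIs of a CTRL cell, B cells (71.8) stood above macrophages (39.0). Microglia (16.7) stood above migratory dendritic cells (12.6) and monocytes (1.87). In the SCDi library the chains stood at 23856 CPM in cDC1, 18563 in cDC2, 7729 in migratory dendritic cells, 6822 in macrophages, 6341 in B cells, 3527 in monocytes, 1617 in plasmacytoid dendritic cells and 1160 in microglia. Migratory dendritic cells thus stood above macrophages and B cells in the SCDi library, and microglia stood last of the 8 classes.

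The background was lower than all of these. T cells held 115 (CTRL) and 87.2 (SCDi) CPM of the 3 chains, NK cells 136 and 130, and neutrophils 237 and 132. At these depths a chain UMI was still counted in 67.0% of CTRL and 58.9% of SCDi T cells, with medians of 9391 and 8957.5 UMIs per T cell. After each cell had been thinned to 2000 UMIs, the share was 24.6% and 12.9%. A chain UMI in a cell is therefore not read here as expression, and levels are used instead.

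**Figure D1:**
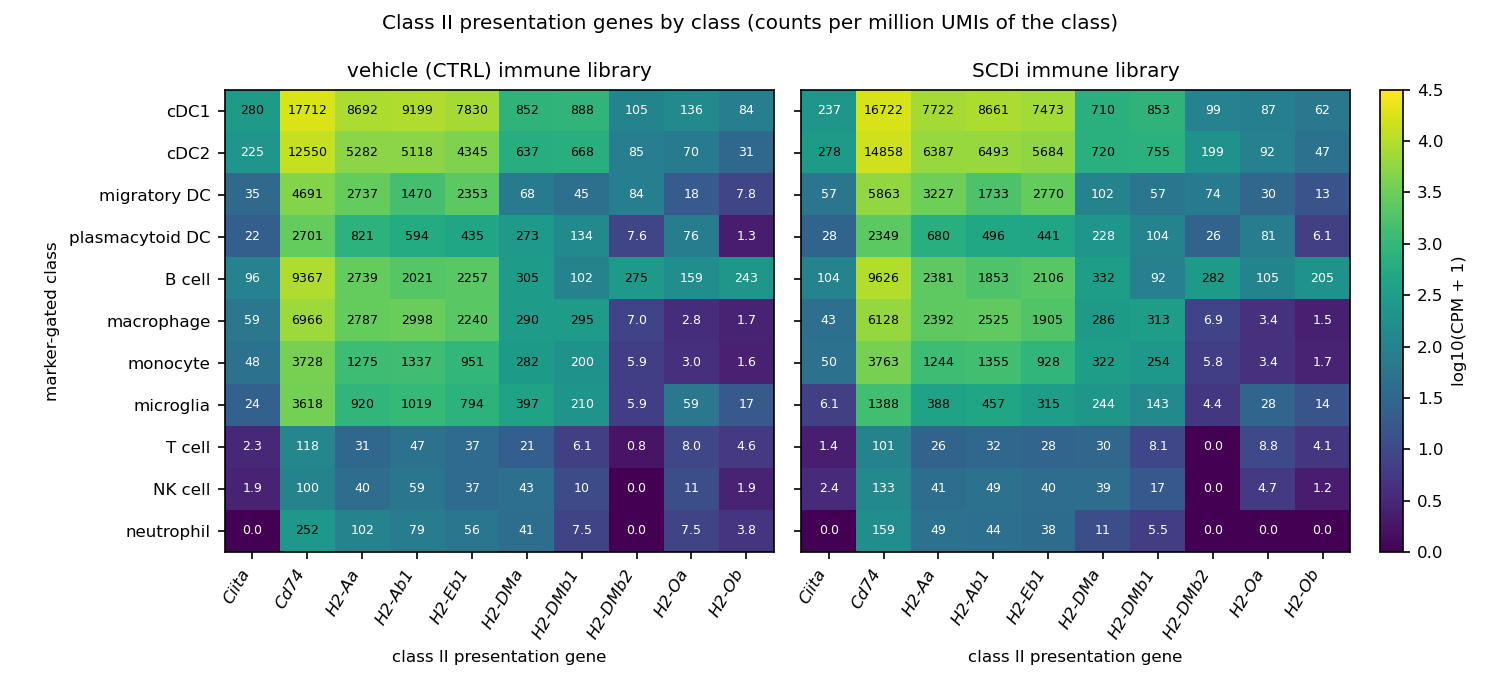
Level of each class II presentation gene (columns) in each marker-gated class (rows), as CPM summed over the cells of a class, in the CTRL and SCDi immune libraries; colour shows log10(CPM + 1) and the printed number the CPM. Ciita was 280 CPM in CTRL cDC1 and 24.1 CPM in CTRL microglia, and H2-Ob was 243 CPM in CTRL B cells and 1.72 CPM in CTRL macrophages.

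Ciita, the coactivator, was highest in conventional dendritic cells, with 280 (CTRL) and 237 (SCDi) CPM in cDC1 and 225 and 278 CPM in cDC2. B cells held 96.2 and 104 CPM, macrophages 59.4 and 43.1, monocytes 48.0 and 49.7, and migratory dendritic cells 34.5 and 56.6. Plasmacytoid dendritic cells held 22.1 and 27.6 CPM and microglia 24.1 and 6.11. T and NK cells held 1.35 to 2.37 CPM, and no Ciita UMI was seen in 61 and 40 neutrophils. The Ciita locus overlaps Dexi on the other strand, so reads from that gene could be told apart only by strand.

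In CTRL, migratory dendritic cells held less Ciita than macrophages (34.5 against 59.4 CPM) beside a near level of H2-Aa (2737 against 2787 CPM). H2-Eb1 was also near (2353 against 2240 CPM), while H2-Ab1 was lower (1470 against 2998 CPM). In SCDi their Ciita stood above that of macrophages (56.6 against 43.1 CPM). Per 100 chain UMIs, Ciita gave 0.526 against 0.741 UMIs in CTRL and 0.733 against 0.632 in SCDi. These are sums over a class, and cells with and without a Ciita UMI are compared below. The SCDi value of migratory dendritic cells rests on the gate. In the migratory dendritic cell-like cluster described below, Ciita stood at 21.6 (CTRL) and 21.9 (SCDi) CPM. In SCDi the Gpnmb macrophage-like cluster stood at 40.7 CPM and the Folr2 and Pf4 macrophage-like cluster at 20.1 CPM.

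The invariant chain Cd74 was the most counted of the 10 genes in every class with class II. It reached 17712 and 16722 CPM in cDC1 and 12550 and 14858 CPM in cDC2. B cells held 9367 and 9626 CPM, macrophages 6966 and 6128, migratory dendritic cells 4691 and 5863, monocytes 3728 and 3763, microglia 3618 and 1388, and plasmacytoid dendritic cells 2701 and 2349. The ratio of chain to Cd74 UMIs differed by class. There were 145 chain UMIs per 100 Cd74 UMIs in CTRL cDC1 and 140 in CTRL migratory dendritic cells, against 74.9 in B cells, 75.6 in microglia and 68.5 in plasmacytoid dendritic cells. In the SCDi library the same ratios were 143, 132, 65.9, 83.6 and 68.8.

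The chains of I-A, H2-Aa and H2-Ab1, were not in 1 ratio in all classes. In migratory dendritic cells 53.7 H2-Ab1 UMIs were counted per 100 H2-Aa UMIs in both libraries (intervals 52.3 to 55.1 in CTRL and 52.0 to 55.4 in SCDi). B cells had 73.8 and 77.9, and plasmacytoid dendritic cells 72.3 and 72.8. Conventional dendritic cells, macrophages, monocytes and microglia had 96.9 to 118. The beta chain H2-Eb1 stood at 7830 and 7473 CPM in cDC1 and at 794 and 315 CPM in microglia.

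H2-DM, the peptide exchange factor, was spread over classes differently from the chains. H2-DMa was highest in cDC1 (852 and 710 CPM) and cDC2 (637 and 720), then in microglia in the CTRL library (397, against 244 in SCDi). B cells held 305 and 332 CPM, macrophages 290 and 286, monocytes 282 and 322, plasmacytoid dendritic cells 273 and 228, and migratory dendritic cells 68.2 and 102. Per 100 chain UMIs, H2-DMa, H2-DMb1 and H2-DMb2 together gave 3.02 UMIs in migratory dendritic cells in both libraries. The same ratio was 9.42 and 9.01 in cDC2, 7.39 and 8.88 in macrophages, 13.7 and 16.5 in monocytes, 22.4 and 22.1 in plasmacytoid dendritic cells, and 22.4 and 33.7 in microglia. H2-DMa lies over other genes on both strands, among them CR974462.3 on its own strand and Brd2 on the other, and reads of overlapping genes may not be told apart.

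The 2 beta chain genes of H2-DM divided the classes. B cells held more H2-DMb2 (275 and 282 CPM) than H2-DMb1 (102 and 91.5 CPM), which is 269 and 308 H2-DMb2 UMIs per 100 H2-DMb1 UMIs. Migratory dendritic cells had 186 and 131 per 100, although their levels were lower (84.4 and 74.0 CPM of H2-DMb2). In cDC1 the ratio was 11.8 and 11.6, in cDC2 12.7 and 26.3, in macrophages 2.36 and 2.21, in monocytes 2.96 and 2.30, and in microglia 2.80 and 3.07. The transcripts of both genes share 369 stretches of 50 bases, 21.2% of those of H2-DMb2. None of the 457 stretches in the last 500 bases of H2-DMb2 occurs in H2-DMb1, while 283 of 1031 in H2-DMb1 occur in H2-DMb2, so reads from those stretches of H2-DMb1 cannot be assigned to 1 gene.

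H2-O, the inhibitor of H2-DM, was led by B cells. They held 159 (CTRL) and 105 (SCDi) CPM of H2-Oa and 243 and 205 CPM of H2-Ob. Next came cDC1 (H2-Oa 136 and 87.2, H2-Ob 84.1 and 61.6 CPM) and cDC2 (70.0 and 92.2, 30.7 and 47.4 CPM). Plasmacytoid dendritic cells held H2-Oa (76.3 and 80.5 CPM) with almost no H2-Ob (2 and 8 UMIs). In macrophages H2-Oa stood at 2.84 and 3.44 CPM and H2-Ob at 1.72 and 1.51 CPM, beside 7.97 and 8.79 CPM of H2-Oa in T cells. Per 100 chain UMIs, T cells held 6.91 (CTRL) and 10.1 (SCDi) H2-Oa UMIs. Plasmacytoid dendritic cells, the highest of the classes with class II, held 4.13 and 4.98. The H2-Oa level of T cells is therefore not read as background here, and its source was not tested.

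Microglia differed from macrophages and monocytes in H2-O. H2-Oa stood at 59.3 (CTRL) and 28.2 (SCDi) CPM and H2-Ob at 17.4 and 13.6 CPM in microglia. Per 100 H2-DM UMIs, microglia held 12.5 and 10.7 H2-O UMIs (intervals 11.5 to 13.6 and 9.59 to 11.9), macrophages 0.768 and 0.818, and monocytes 0.941 and 0.874. The intervals do not overlap between microglia and either class in either library. B cells held 59.0 and 44.0, while migratory dendritic cells (13.2 and 18.5), cDC1 (11.9 and 8.95) and cDC2 (7.25 and 8.34) stood nearer to microglia. The H2-Oa locus overlaps BC051537 on the other strand.

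Within a class the cells were far from alike. In CTRL cDC2 the chains had a median of 101 UMIs per 10000 UMIs of a cell, with the 10th percentile at 1.26 and the 90th at 347. CTRL macrophages had a median of 39.0 (10th percentile 1.37, 90th 224) and CTRL monocytes a median of 1.87 with a 90th percentile of 113. B cells were narrower, with a median of 71.8 and 10th and 90th percentiles of 14.3 and 105. Migratory dendritic cells had a median of 12.6 and a 90th percentile of 186. In CTRL, 94.4% of B cells, 77.7% of cDC2, 68.1% of macrophages, 64.0% of microglia, 52.2% of migratory dendritic cells and 31.4% of monocytes held at least 10 chain UMIs per 10000, against 1 of 215 T cells.

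**Figure D2:**
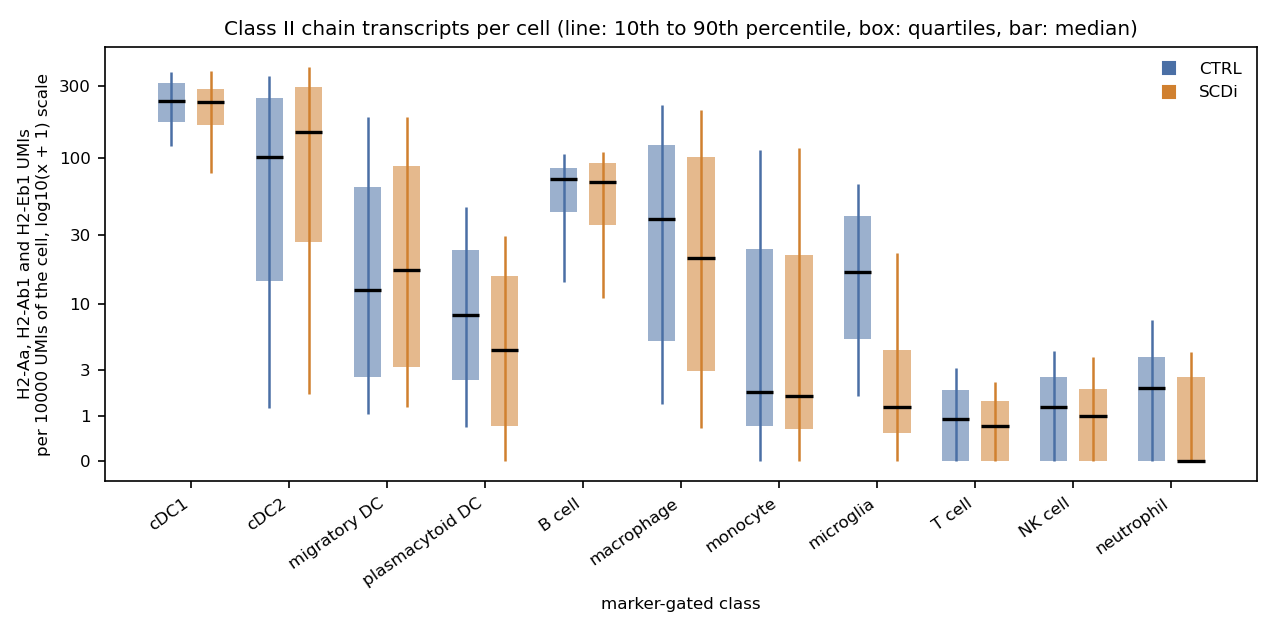
Summed H2-Aa, H2-Ab1 and H2-Eb1 UMIs per 10000 UMIs of each cell (log10(x + 1) scale) in each marker-gated class; boxes span the quartiles, black bars are medians and lines run from the 10th to the 90th percentile. The median of microglia was 16.7 in CTRL and 1.28 in SCDi, where T cells stood at 0.909 and 0.699 and B cells at 71.8 and 68.5.

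Cells with a Ciita UMI held more chain UMIs in most classes. In CTRL cDC2, the 158 cells with a Ciita UMI had a median of 165 chain UMIs per 10000 and the others had 2.73, at median depths of 17479 and 15631 UMIs. The corresponding medians were 179 and 7.09 in migratory dendritic cells (53 of 429 cells with Ciita), 118 and 12.8 in macrophages (899 of 2424), 47.1 and 1.25 in monocytes (417 of 1550), and 44.2 and 12.5 in microglia (78 of 292). B cells differed little, with 73.8 in 38 cells with Ciita and 67.8 in the others, and CTRL cDC1 had the lower median in cells with Ciita (233 against 254, with 33 of 38 cells positive), whereas SCDi cDC1 had the higher one (237 against 156, with 30 of 33 positive). Cells with a Ciita UMI were deeper in these classes except microglia, and the part of depth in these medians was not tested.

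Clusters of the immune cells, computed without the 10 genes and named only from fixed markers, gave a second view of the same levels. A cDC2-like cluster held the most Ciita (264 and 307 CPM) and chains (19651 and 22581 CPM). A cluster of 372 CTRL and 534 SCDi cells that stayed unnamed, led by Ly6i, Lyz1 and the interferon-induced chemokine Cxcl9, held 164 and 152 CPM of Ciita, 13018 and 12801 CPM of Cd74 and 17455 and 15942 CPM of the chains. That is above the Gpnmb and Apoe macrophage-like cluster (10621 and 8532 CPM of the chains) and the Folr2 and Pf4 macrophage-like cluster (5185 and 3812 CPM). At the low end stood a monocyte-like cluster with F13a1 and Chil3 (792 and 248 CPM). A migratory dendritic cell-like cluster had chains at 5307 and 5582 CPM with 21.6 and 21.9 CPM of Ciita.

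**Figure D3:**
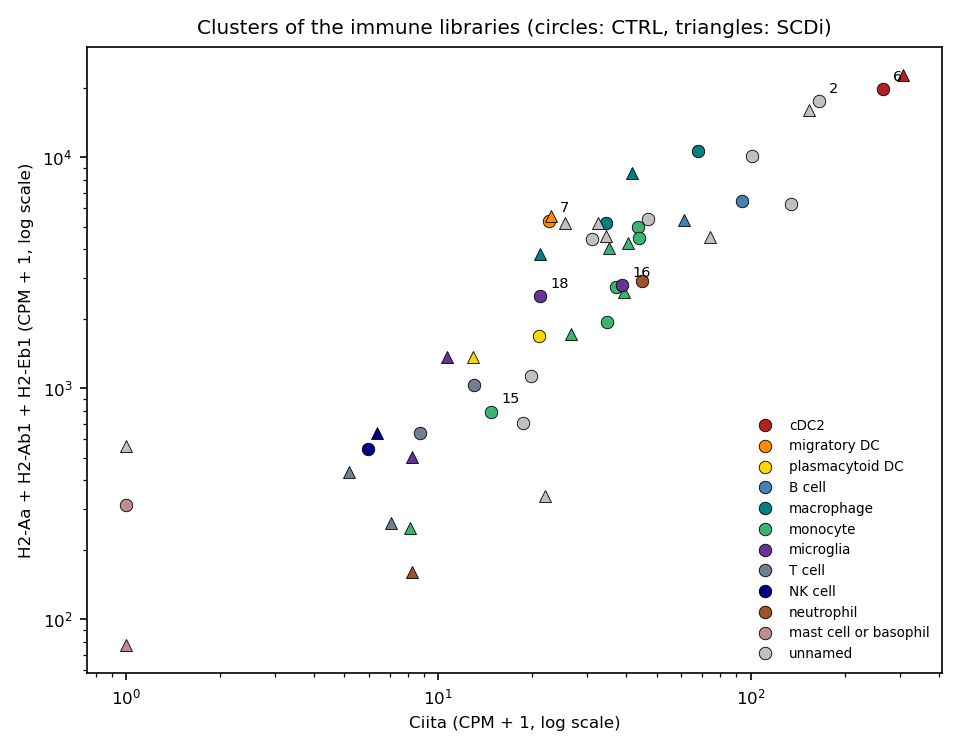
Level of Ciita (horizontal, CPM + 1, log scale) against the summed level of H2-Aa, H2-Ab1 and H2-Eb1 (vertical, CPM + 1, log scale) in each cluster of the immune libraries; circles are CTRL, triangles SCDi, colours the marker-based names and numbers the clusters spoken of in the text (6 cDC2-like, 7 migratory dendritic cell-like, 15 the F13a1 monocyte-like, 16 and 18 microglia-like, 2 unnamed). Cluster 16 stood at 2798 CPM of the chains in CTRL and 504 CPM in SCDi.

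Across 19 sums of 1 class in 1 library (classes with at least 50 cells), the levels of the other class II genes were compared with the mean log2(CPM + 1) of the 3 chains. Pearson's r was 0.99 for Cd74, 0.95 for Ciita, 0.87 for H2-DMb1, 0.85 for H2-DMa, 0.84 for H2-DMb2, 0.46 for H2-Ob and 0.39 for H2-Oa. Among 8962 other genes the most alike were Ifi30 (0.93), the thiol reductase that unfolds antigen in lysosomes, and Cd40 (0.90), a costimulatory receptor. Plekho1, Nrros, Prcp, P2rx4, Zbtb18, Scpep1, Hs6st1 and Ppfibp2 followed with r of 0.86 to 0.89. The cut of 50 cells left out cDC1 (38 and 33 cells), the class with the highest chain level. Sums of the same library share its free RNA and depth. The other classes enter from both libraries except neutrophils, which enter from CTRL alone, so these are descriptions.

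The SCDi and CTRL libraries differed most in microglia, where 7 of the 10 class II genes were lower in SCDi by at least 1.5-fold. The gate asks for at least 6 of the 8 microglial markers, so their presence in both libraries was fixed by it. Their summed level was 2645 CPM in CTRL and 3464 CPM in SCDi microglia (log2 0.39), unevenly among markers. P2ry12, a purinergic receptor of resting microglia, stood at 576 and 723 CPM, Fcrls at 408 and 764 and Sall1 at 126 and 129. Of the 10 genes, 8 reached 20 CPM in either library, all 8 were lower in SCDi, and 7 were lower by at least 1.5-fold, where 1.1% of the 6566 genes measured in microglia were lower and 0.777% higher by that much. The median log2 ratio was -1.20 for these 8 genes and -0.01 for all genes measured.

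By role, Ciita had the lowest ratio, with 188 UMIs (24.1 CPM) in 292 CTRL microglia and 57 UMIs (6.11 CPM) in 401 SCDi microglia, a log2 ratio of -1.97 (interval -2.43 to -1.54). Cd74 stood at 3618 and 1388 CPM (log2 -1.38). Among the chains, H2-Eb1 stood at 794 and 315 CPM (-1.33), H2-Aa at 921 and 388 CPM (-1.25) and H2-Ab1 at 1019 and 457 CPM (-1.16). All intervals of these genes lay below -1. The H2-DM genes differed less, with H2-DMa at 397 and 244 CPM (-0.70), H2-DMb1 at 210 and 143 CPM (-0.56, short of 1.5-fold) and H2-DMb2 at 5.89 and 4.39 CPM. H2-Oa stood at 59.3 and 28.2 CPM (-1.07, interval -1.30 to -0.85) and H2-Ob at 17.4 and 13.6 CPM, with an interval of the ratio from -0.72 to 0.00.

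The difference in microglia lay in most cells and not in a few. The median of the chains was 16.7 UMIs per 10000 in CTRL and 1.28 in SCDi microglia, and the upper quartile was 40.8 and 4.40. At least 10 chain UMIs per 10000 were held by 187 of 292 CTRL cells (64.0%, exact interval 58.2 to 69.5) and by 73 of 401 SCDi cells (18.2%, 14.5 to 22.3). After thinning to 2000 UMIs, 82.5% and 36.7% of microglia had a chain UMI, against 24.6% and 12.9% of T cells. Microglia had median depths of 20097 and 15122 UMIs.

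Both microglia-like clusters showed the lower level in SCDi. In the first, led by Csmd3 and Gpr34, 126 CTRL and 234 SCDi gated cells held 2816 and 510 CPM of the chains (log2 -2.46, interval -2.55 to -2.38), and Ciita stood at 40.2 and 7.38 CPM. In the second, led by Il1a and Cd81 and deeper (medians of 30758.5 and 35266.5 UMIs), 156 and 150 gated cells held 2558 and 1020 CPM (log2 -1.33), and Ciita stood at 18.5 and 2.74 CPM. The first cluster held 43.2% of CTRL and 58.4% of SCDi gated microglia, and the second 53.4% and 37.4%. The few gated cells outside both enter the ratio of all gated microglia. Of 21360 CTRL chain UMIs, 5606 lay in the first cluster and 14350 in the second. Of 10831 SCDi chain UMIs, 1521 and 5948 did. Of the SCDi cells outside both, 8 lay in the Gpnmb macrophage-like cluster.

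Macrophage transcripts in the microglial gate were measured beside this. Summed over Mrc1, Ms4a7, Folr2, Pf4 and Gpnmb, they stood at 323 CPM in CTRL and 298 CPM in SCDi microglia (log2 -0.11). Only Ms4a7 was higher in SCDi (70.4 and 186 CPM). Of its 550 CTRL UMIs, 27 lay in the first and 353 in the second microglia-like cluster. Of its 1735 SCDi UMIs, 34 and 857 did. Mrc1 (84.0 and 24.0 CPM), Gpnmb (118 and 62.6), Folr2 (17.3 and 8.14) and Pf4 (32.8 and 17.7) were lower. Within the microglia-like clusters the sum was lower in SCDi, at 68.8 and 28.8 CPM in the first (log2 -1.25). In the second it stood at 375 and 245 CPM (-0.61). In the 121 CTRL and 232 SCDi microglia without a UMI of any of the 5 genes, a set chosen after the data had been seen, the chains stood at 2363 and 596 CPM (log2 -1.99, interval -2.06 to -1.92), so the ratio was larger than in all gated microglia. With predicted doublets kept, the log2 ratio was -0.89 for the chains and -1.01 for Ciita, and with whole microglia-like clusters Ciita stood at -1.35. All 10 genes were lower in SCDi microglia under each of the 10 alternatives computed.

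**Figure D4:**
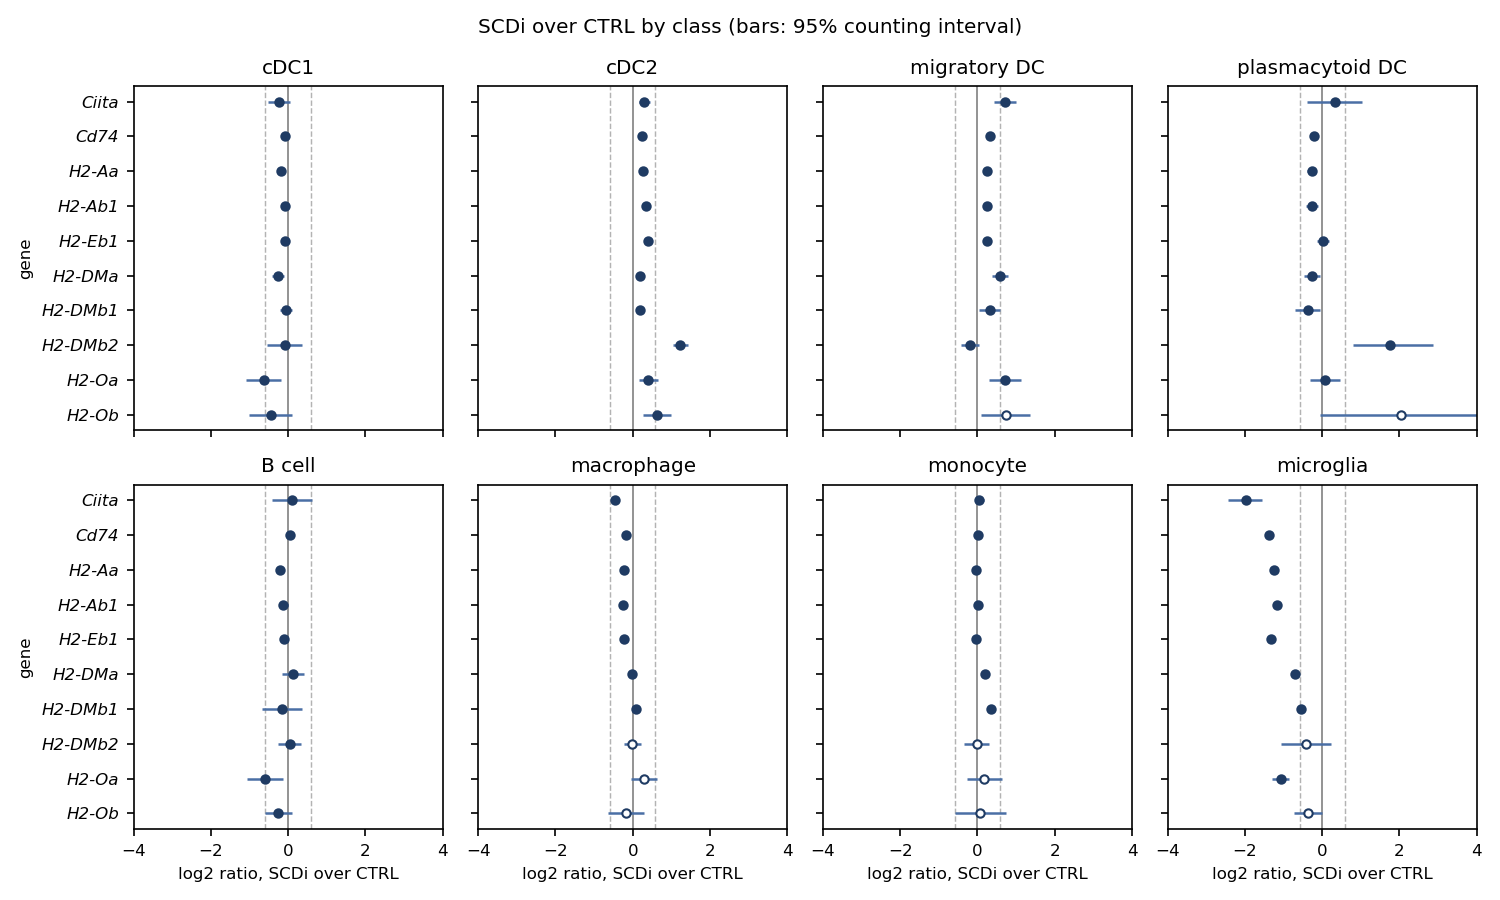
Log2 ratio of SCDi over CTRL for each class II presentation gene in 8 marker-gated classes; points are ratios of CPM with 0.5 counts added to each count, bars the exact 95% counting intervals (1 interval runs past the axis), open points genes under 20 CPM in both libraries, and dashed lines a 1.5-fold difference. In microglia 7 filled points lie left of the lower dashed line, and in macrophages and monocytes all points lie between the lines.

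In cDC2 the direction was the opposite. All 10 class II genes were higher in SCDi, 2 of them by at least 1.5-fold, where 3.35% of 5998 genes measured in cDC2 were higher and 4.27% lower by that much. The median log2 ratio was 0.32, and that of all genes measured was near 0. H2-DMb2 stood at 84.8 CPM (326 UMIs) in CTRL and 199 CPM (625 UMIs) in SCDi (log2 1.23, interval 1.03 to 1.43), and 37.9% and 56.4% of cDC2 had a UMI of it. H2-Ob stood at 30.7 and 47.4 CPM (log2 0.62), but fell short of 1.5-fold with whole clusters (0.43) and with 1 more marker required (0.38). The chains differed by log2 0.33, from 14745 to 18563 CPM, Cd74 by 0.24 and Ciita by 0.30. In the cells of the cDC2-like cluster alone the gated cDC2 held 16117 and 20892 CPM of the chains. With whole clusters in place of gated cells, H2-DMb2 differed by log2 0.71.

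In migratory dendritic cells 8 of 9 measured class II genes were higher in SCDi, and 3 were higher by at least 1.5-fold, where 2.39% of 5534 genes were higher and 2.57% lower by that much. These were Ciita (34.5 and 56.6 CPM, log2 0.71), H2-DMa (68.2 and 102 CPM, 0.59) and H2-Oa (18.4 and 30.1 CPM, 0.71). The chains differed by 0.24. Only H2-DMb2 was lower, at 84.4 and 74.0 CPM. These differences rested on the gate: in the migratory dendritic cell-like cluster as a whole, the log2 ratio was 0.02 for Ciita, 0.08 for H2-DMa, 0.10 for H2-Oa and 0.07 for the chains. With 1 more marker required it was 0.40 for Ciita, 0.38 for H2-DMa and 0.01 for H2-Oa.

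Macrophages and monocytes, the most numerous classes, had none of their 7 measured class II genes past 1.5-fold, where 0.435% of 6203 macrophage genes were higher and 0.838% lower by that much, and 0.628% and 1.01% of 5569 monocyte genes. In macrophages 6 of 7 were lower in SCDi, with Ciita at 59.4 and 43.1 CPM (log2 -0.46, interval -0.54 to -0.38), the chains at 8026 and 6822 CPM (-0.23) and Cd74 at 6966 and 6128 CPM (-0.19). H2-DMb1 alone was higher, at 295 and 313 CPM (0.08), and turned lower (-0.13) with whole clusters. With whole macrophage-like clusters Ciita was lower by more than 1.5-fold (-0.88): it stood at 67.0 and 40.7 CPM in the Gpnmb cluster and at 33.4 and 20.1 CPM in the Folr2 and Pf4 cluster. The difference was not the same in all clusters: gated macrophages of the Folr2 and Pf4 cluster held 5168 and 3664 CPM of the chains (-0.50), those of the Gpnmb cluster 10490 and 8436 CPM (-0.31), and those of the unnamed Cxcl9 cluster 20044 and 18982 CPM (-0.08), while in an unnamed cluster led by Lipg and interferon-induced Ifit genes they held 4465 and 5264 CPM (0.24). In monocytes the chains stood at 3563 and 3527 CPM (-0.01), a difference whose sign turned under median-of-ratios scaling and under a stricter gate. H2-DMb1 stood at 200 and 254 CPM (0.34) and H2-DMa at 282 and 322 CPM (0.19) in monocytes. Gated monocytes of the F13a1 and Chil3 cluster held 722 and 151 CPM of the chains (-2.25), from medians of 1.14 and 0.741 UMIs per 10000 that are near the T cell level.

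B cells, cDC1 and plasmacytoid dendritic cells had 1 class II gene each past 1.5-fold. In B cells 6 of 10 genes were lower in SCDi and 1, H2-Oa, by at least 1.5-fold (159 and 105 CPM, log2 -0.59, interval -1.06 to -0.14), where 13.8% of 6520 genes were lower and 10.6% higher by that much. The H2-Oa ratio ran from -0.89 to -0.25 over the alternatives and fell short of 1.5-fold in 5 of them. Their chains stood at 7017 and 6341 CPM (-0.15), but at 0.02 when each cell's own CPM was averaged. In cDC1 all 10 were lower in SCDi, 1 of them by at least 1.5-fold, where 8.05% of 6086 genes were lower and 13.2% higher by that much: H2-Oa stood at 136 and 87.2 CPM (116 and 68 UMIs, log2 -0.63). It fell short of 1.5-fold with 1 more marker required (-0.34) and averaged over cells (-0.44), and with 1 more marker H2-DMb1 (0.10) and H2-DMb2 (0.11) were higher in SCDi. In plasmacytoid dendritic cells 4 of 9 measured genes were higher and 5 lower, and 1, H2-DMb2, was higher by at least 1.5-fold, where 4.44% of 6324 genes were higher and 5.83% lower by that much. Its 34 UMIs in SCDi came from 3 cells and its 12 UMIs in CTRL from 10 cells, and its direction turned with a stricter gate.

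Other genes of the pathway, a list of 35 that covers the promoter complex, interferon gamma signalling, lineage factors, proteases and turnover, were set beside these. In microglia 33 were measured, 11 were higher and 22 lower in SCDi, and 0 passed 1.5-fold in either direction, with a median log2 ratio of -0.03. Of all genes from 5 CPM in microglia, 1.93% were higher and 2.71% lower by that much. The lowest were Irf1, an interferon-induced activator of Ciita (276 and 189 CPM, log2 -0.55), Cd44, a partner of Cd74 at the surface (114 and 79.1 CPM, -0.53), and Prdm1, a repressor of Ciita (28.7 and 21.2 CPM, -0.43). The highest were Ctsd, a lysosomal protease (6500 and 7582 CPM, 0.22), Nfyc of NF-Y (44.3 and 49.0 CPM, 0.14) and Spi1, the factor PU.1 (423 and 462 CPM, 0.13). Of the 8 genes of interferon gamma signalling 6 were lower. The median log2 ratio of the 8 was -0.08, beside -0.01 for all genes from 20 CPM. Among the 6 were Jak2 (58.6 and 47.5 CPM, -0.30) and also Ifngr1, Ifngr2 and Socs1, whose intervals included 0. Ctss, the protease that trims Cd74, stood at 4838 and 4404 CPM (-0.14).

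In cDC2, 34 of the 35 were measured, 16 were higher and 18 lower, and only H2-Eb2, a further class II beta chain, passed 1.5-fold (15.1 and 26.7 CPM, log2 0.82), where 7.64% of all genes from 5 CPM were higher and 6.86% lower by that much. The lowest were Cd83, which protects class II from degradation (530 and 361 CPM, -0.55), and Jak2 (723 and 493 CPM, -0.55). In migratory dendritic cells 14 were higher and 20 lower, with H2-Eb2 (52.1 and 79.6 CPM, 0.61) and Cd44 (47.1 and 74.3 CPM, 0.66) higher and Prdm1 (28.7 and 18.9 CPM, -0.60) lower by at least 1.5-fold, where 5.39% of all genes were higher and 6.14% lower. In macrophages 10 were higher and 22 lower and in monocytes 14 and 18, with 0 past 1.5-fold in both, where under 2% of all genes passed it in each direction. Cd83 was among the lowest in both, at 120 and 87.4 CPM in macrophages (-0.45) and 131 and 91.9 CPM in monocytes (-0.52), and Socs1, which limits interferon signalling, was the highest in macrophages (44.0 and 62.1 CPM, 0.50). In B cells 14 were higher and 20 lower, with 3 past 1.5-fold in each direction, among them the protease Lgmn (261 and 116 CPM, -1.16) and Ifi30 (383 and 724 CPM, 0.92). These 3 of 34 each way stand against 15.5% of all genes higher and 18.9% lower in B cells.

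In the tumour sort the chains were almost not counted. Among 6845 CTRL and 7949 SCDi cells with a Krt8 UMI and without leukocyte or endothelial gates, 44 (0.643%, exact interval 0.467 to 0.862) and 30 (0.377%, 0.255 to 0.538) had a UMI of a chain. At least 2 such UMIs were found in 4 cells of each library and at least 3 in 2 and 3 cells. In all, 61 and 45 chain UMIs stood against medians of 41975 and 37073 UMIs per cell, which is 0.216 and 0.151 CPM. Ciita had 28 and 27 UMIs. None of the 10 genes reached 20 CPM in these cells, so none entered the comparison between libraries, in which 0.22% of 6362 genes were higher and 0.597% lower by at least 1.5-fold.

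The members were not counted alike in these cells. H2-DMb1 had a UMI in 31.7% of CTRL and 25.1% of SCDi cells (10.5 and 9.04 CPM) and H2-DMa in 17.1% and 14.5% (4.88 and 4.43 CPM), the latter with the overlapping genes named above. Cd74 had a UMI in 6.73% and 8.62% of cells, with 638 and 1116 UMIs or 2.26 and 3.75 CPM (log2 0.73, interval 0.59 to 0.88). H2-Oa had a UMI in 0.555% and 0.579% of cells. H2-DMb2 had 4 and 2 UMIs, and H2-Ob had 1 and 0, where a count of 0 among 7949 cells allows up to 0.0377%.

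Leukocyte and macrophage transcripts in the same cells were uneven. Among the Krt8-positive cells of CTRL and SCDi, Tyrobp, an adaptor of myeloid cells, had 47 and 22 UMIs (0.166 and 0.0740 CPM), against 2442 and 2598 CPM in macrophages, and C1qb had 34 and 24 UMIs. Others were counted more often: Fcer1g had 165 and 160 UMIs, Coro1a 513 and 932 (1.81 and 3.14 CPM), Apoe 691 and 771, and Gpnmb 1397 and 1513. How much of these counts is free RNA was not tested. The ratio of Cd74 to H2-Aa UMIs was far from that of the macrophages, in which Cd74 had 316790 UMIs and H2-Aa 126740 in CTRL: the tumour cells had 638 and 19. Cd74 was counted in 8 of 44 CTRL and 13 of 30 SCDi cells with a chain UMI (18.2% and 43.3%), and in 6.66% and 8.49% of cells without one. Ptprc had a UMI in 0 of these 44 and 0 of these 30 cells. It had only 3 and 0 UMIs in all Krt8-positive cells, so its absence says little about leukocyte RNA. Tyrobp had a UMI in 1 of the 44 and 0 of the 30. Ptprc, Laptm5, Tyrobp, Fcer1g and Coro1a summed to 5.38 CPM in CTRL cells with a chain UMI and 2.62 CPM in those without. In SCDi the sums were 4.59 and 3.77 CPM. Of the 5 cells with at least 3 chain UMIs, 1 SCDi cell had 67 Krt8 UMIs, 3 chain UMIs, 4 Cd74 UMIs and 1 Ciita UMI among 31343 UMIs, and 1 had 157 Krt8 UMIs, 3 chain UMIs and 8 Cd74 UMIs among 111857. The remaining SCDi cell had 21 Krt8 UMIs and 11 chain UMIs among 10246. Both CTRL cells had 1 Krt8 UMI each, and 1 of them only 533 UMIs in all.

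**Figure D5:**
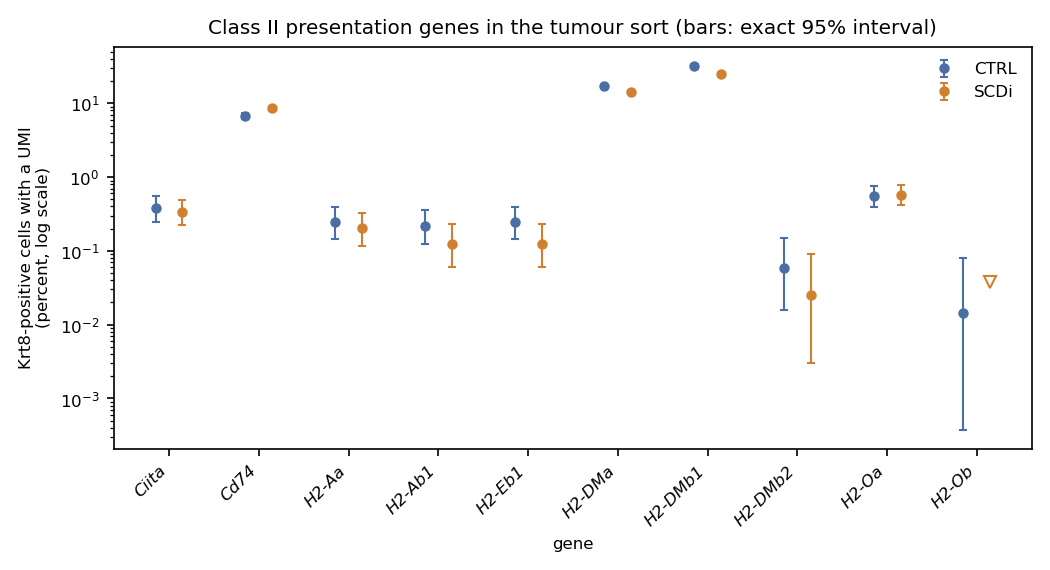
Share of Krt8-positive cells of the tumour sort with at least 1 UMI of each class II presentation gene (percent, log scale) in the CTRL and SCDi libraries; bars are exact 95% intervals and the open triangle is the upper limit for a count of 0. Shares of H2-Aa, H2-Ab1 and H2-Eb1 lie between 0.126% and 0.248%, while H2-DMb1 reached 31.7% and 25.1%.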

How the data were processed

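The deposited matrices hold whole-number UMI counts per gene and cell barcode, which the authors made with Cell Ranger 7.1.0 on mm10, per the submitters' processing notes; the sources used here do not give the gene annotation or the treatment of intronic reads. The 4 libraries held 7332 and 6777 (immune) and 7713 and 9034 (tumour) barcodes. Cells with at least 300.0 genes and at most 15% mitochondrial UMIs were kept. Scrublet's automatic threshold marked under 0.5% of barcodes, so 0.8% per 1000 cells with the highest scores were removed instead (333 to 633 a library).

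Cells were classed by fixed markers that hold none of the 10 genes, at least 6 of 8 for microglia, at least 4 for macrophages and monocytes (the larger fraction deciding) and 3 to 5 for other lineages. These thresholds were set after the data had been seen. Dendritic cells with more than 5 and lymphoid cells with more than 3 macrophage markers were left out. UMIs were summed per class and library and scaled to CPM. Log2 ratios of SCDi over CTRL used 0.5 added counts and an exact conditional binomial 95% interval, shares an exact Clopper-Pearson interval and levels an exact Poisson interval, and a count of 0 was given the limit of 3 counts of the total. The comparison of all genes counted those that differed by at least 1.5-fold among genes that reached 20 CPM in 1 or both libraries, and partner genes were counted from 5 CPM. The ratio was tested on simulated counts. No test across animals was possible with 1 library per group.

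The 10 genes were all named, the partner list by its 3 highest and 3 lowest ratios in a class, with a few further partners chosen after their values were seen, and alike genes by the 10 highest correlations. Members and lists were chosen with earlier results of these data known. Alternatives were other barcode filters, no doublet removal, a stricter gate, Leiden clusters (scanpy 1.11.5, resolution 1.0, 30 components, 2000 variable genes), averaging over cells, median-of-ratios scaling, 5 added counts, thinning, subtraction of the T cell level and leaving out cells with macrophage transcripts. Python 3.11.15, numpy 2.4.6, pandas 2.3.3, scipy 1.17.1 and matplotlib 3.10.9 were used. Promoters came from RefSeq (GRCm38.p6), and gene positions from GENCODE on GRCm38.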

Additional observations from a re-analysis of the deposited data

How the results depend on the processing

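All ratios here are log2, and those between treatments are SCDi over CTRL for the summed chains. With 1 more marker required per class, the ratio was -1.48 in microglia, -0.23 in macrophages, 0.21 in migratory dendritic cells and 0.080 in monocytes. With Leiden clusters it was -1.13 in microglia, -0.54 in macrophages, -0.28 in B cells, -0.19 in monocytes, 0.073 in migratory dendritic cells and 0.20 in cDC2. Averaging each cell's own CPM gave -1.75 in microglia, -0.21 in macrophages, -0.054 in monocytes and 0.015 in B cells. Without doublet removal it was -0.89 in microglia, -0.041 in monocytes and 0.18 in migratory dendritic cells. Median-of-ratios scaling gave 0.28 in migratory dendritic cells and 0.0031 in monocytes. Of 2 alternatives chosen after seeing the data, subtracting the T cell level gave -1.29 in microglia, and leaving out cells with a UMI of 5 macrophage genes gave -1.99 in microglia, 0.37 in cDC2 and 0.26 in migratory dendritic cells.

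Between classes of the CTRL library, the ratio of cDC2 over macrophages was 0.82 with 1 more marker and 1.35 with clusters, that of B cells over macrophages -0.25 with clusters and -0.29 averaged over cells, and that of monocytes over macrophages -1.16 with all barcodes, -1.12 without doublet removal, -1.29 with 1 more marker, -1.33 with clusters and -1.27 averaged over cells. Microglia over macrophages gave -1.46 without doublet removal, -1.63 with 1 more marker, -1.59 with clusters and -1.52 averaged over cells. The share of Krt8-positive cells with a chain UMI was 0.0584% (CTRL) and 0.0503% (SCDi) for at least 2 UMIs, 0.163% and 0.171% thinned to 10000 UMIs, and 0.0308% and 0.0138% thinned to 2000.

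H2-DMb2 in plasmacytoid dendritic cells, higher in SCDi by 1.75 as gated, turned to -1.99 with 1 more marker and -1.78 with clusters. The cause of these changes was not tested. Summary values stayed within their counting interval in 56 of the comparisons made and moved past it in 42; for single genes and shares, 632 stayed, 179 moved and 2 called values turned direction. Over all log2 ratios, called or not, 57 of 879 alternative values had the other sign. In the tumour cells the chains rest on 61 and 45 UMIs, and in cDC1, plasmacytoid dendritic cells and B cells H2-Oa and H2-Ob rest on 2 to 162 UMIs. No paired analysis was possible because each treatment has 1 library per sort.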

Other observations

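A few cells of the tumour sort were gated as endothelial, 39 in CTRL and 31 in SCDi, with median depths of 9790 and 10350 UMIs. The gate asked for at least 4 of 7 endothelial markers and no Krt8 UMI, or for more markers where Krt8 was detected. Endothelial cells line the vessels and can gain class II under interferon gamma. A chain UMI was found in 24 of the 39 CTRL cells (61.5%, exact interval 44.6 to 76.6) and in 9 of the 31 SCDi cells (29.0%, 14.2 to 48.0), and the intervals overlap. The chains stood at 286 CPM (149 UMIs, interval 242 to 336) and 143 CPM (73 UMIs, 112 to 180), and Cd74 at 1047 CPM (546 UMIs, 961 to 1139) and 307 CPM (157 UMIs, 261 to 360). The counting intervals of these levels do not overlap. Ciita stood at 16 and 5 UMIs. H2-Oa and H2-Ob had 0 UMIs in both libraries. Ptprc and Tyrobp had no UMI in the endothelial cells of either library, with or without a chain UMI, so they do not separate these cells. With 1 library per treatment the difference was not tested, and the class of 5 CTRL and 1 SCDi cells with leukocyte markers was too small to describe.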
